A study of Homo sapiens with 6 samples.

Results

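The giant cytoskeletal linker genes are 9 genes whose very large proteins tie actin filaments, microtubules and intermediate filaments to one another and to the membrane: PLEC, DST and MACF1 (plakins), AHNAK and AHNAK2, FLNA (a filamin), SPTAN1 and SPTBN1 (spectrins) and UTRN (utrophin). They were chosen by name from the authors' deposited table of genes that differed between shikonin-treated and untreated cells, and all 9 are among its 7150 genes. Because earlier results from that table were known when the genes were chosen, their values are given as a description and no test of them was made.

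RNA was sequenced from MDA-MB-231, a human triple-negative breast cancer cell line of wild-type genotype per the labels, which grows as spindle-shaped, migratory cells. The groups were 3 libraries from cells given 0.5 µM shikonin for 24 h and 3 control libraries that the labels call untreated, and the sources used here name no vehicle. Shikonin, a red naphthoquinone pigment, comes from the roots of gromwell plants, and the labels write the unit of its dose with a lower-case m, read here as micromolar. Whether the replicate libraries stem from separate cultures is not stated in the labels, so the spread behind the errors may be technical.

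Cells carry their shape and their resistance to force on 3 filament systems, and the linkers couple them. Plakins bind intermediate filaments, actin or microtubules through modules strung along one chain, filamins crosslink actin and hold integrins to it, and spectrins form a mesh beneath the membrane that is held by ankyrins and protein 4.1. Utrophin, the close relative of dystrophin, joins actin to dystroglycan, and AHNAK is a membrane-associated scaffold that binds the S100A10 and annexin A2 complex. Plectin and filamin A are widely studied in the adhesion and migration of carcinoma cells.

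The table holds no values of single libraries, so levels are given as group means implied by the authors' mean normalized count and fold change, and the spread between libraries enters only through the authors' standard error. The header does not name the numerator of the fold change, and genes the authors marked as up are taken as higher in shikonin. Genes enter the authors' deposited table at a DESeq2 adjusted p under 0.05 with a fold over 1.5. In bulk RNA, fewer cells holding a transcript and less of it per cell cannot be told apart. The listed genes as a whole were not centred on 0: their median log2 fold change in the authors' deposited table was 0.60. Setting the implied totals of the listed genes equal lowers every log2 fold change by 0.394, and the median then becomes 0.21. Of 6 markers of the line, VIM and CAV1 were listed higher and ZEB1 lower, while CD44, AXL and MSN were not listed. Of 9 luminal epithelial markers 4 were listed higher (FOXA1, KRT8, KRT18 and KRT19) and ERBB2 lower, and of 5 blood cell markers CD14 alone was listed, with 1807 normalized counts in shikonin and 404 in control. FOXA1 had an implied mean of 67.9 normalized counts in shikonin and 2.91 in control, and the part of any of these in the values of the linkers was not tested.

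All 9 linker genes were listed lower in shikonin, where the authors' deposited table lists 24.7% of the about 14253 genes tested as lower and 50.2% in either direction. Their log2 fold changes in the authors' deposited table lay between -3.23 and -0.94, with a median of -2.29 (4.89-fold lower), while the median of all genes listed lower was -1.11. Of the 9, 8 were more than 2-fold lower (14.6% of all genes tested) and 6 more than 4-fold lower (2.5%). The 95% interval of the fold, from the standard error in the authors' deposited table, lay wholly beyond 2-fold lower for 7 and beyond 4-fold lower for 4. With equal implied totals, which lower every value, all 9 were lower by construction, with a median of -2.68. Summed over the 9 genes, the implied means came to 60263 normalized counts in shikonin and 229665 in control, which is 0.456% of the implied total of the listed genes in shikonin and 2.29% in control.

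**Figure D1:**
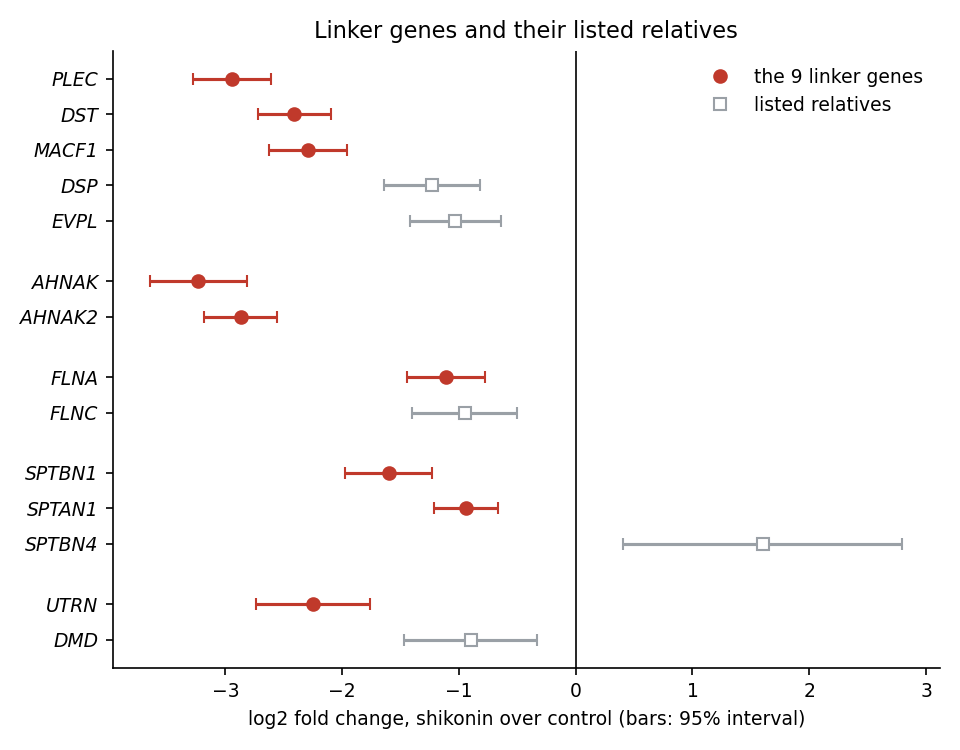
Log2 fold change of the 9 linker genes (filled circles) and of other listed genes of the same families (open squares), shikonin over control, from the authors' deposited table, with bars for the 95% interval from the listed standard error. The AHNAK pair, PLEC, DST, MACF1 and UTRN lie below -2, FLNA and SPTAN1 near -1, and SPTBN4 is the only gene shown to the right of 0.

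The 3 plakins fell 4.89-fold to 7.67-fold. PLEC encodes plectin, which anchors intermediate filaments to hemidesmosomes, focal adhesions, actin and the nucleus. It had an implied mean of 9771 normalized counts in shikonin and 74907 in control. Its log2 fold change in the authors' deposited table was -2.94 ± 0.17 (standard error), or 7.67-fold lower (95% interval 6.11 to 9.62). By the authors' p it stood second among the 3520 genes listed lower, and by mean level 22nd among all listed genes. PLEC lies on chromosome 8 from 143915147 to 143976734 on the minus strand (GRCh38, GENCODE 29), and its longest coding sequence of 4684 codons is spread over a transcript of 32 exons.

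DST encodes dystonin, a spectraplakin with an epithelial form in hemidesmosomes and long forms that bind actin and microtubules. Its implied mean was 748 normalized counts in shikonin and 3981 in control, and its log2 fold change in the authors' deposited table was -2.41 ± 0.16, or 5.32-fold lower (4.29 to 6.59). MACF1, the other spectraplakin, guides microtubules along actin towards focal adhesions. It had 1498 normalized counts in shikonin and 7316 in control by implied mean, at a log2 fold change of -2.29 ± 0.17, or 4.89-fold lower (3.87 to 6.17), per the authors' deposited table. The intervals of these paralogs overlapped, and DST minus MACF1 was -0.12 on the log2 scale. DST (chromosome 6, 56457987 to 56954628, minus strand) and MACF1 (chromosome 1, 39081316 to 39487177, plus strand) have the longest coding sequences of the 9, with 7461 and 7592 codons in transcripts of 98 and 101 exons. Both intervals also overlapped that of PLEC, though for MACF1 only from 6.11-fold to 6.17-fold. On the log2 scale PLEC minus DST was -0.53 and PLEC minus MACF1 was -0.65.

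The AHNAK pair fell 9.39-fold and 7.29-fold. AHNAK had an implied mean of 4746 normalized counts in shikonin and 44553 in control. Its log2 fold change in the authors' deposited table, -3.23 ± 0.21, was the lowest of the 9 and the 29th lowest of all 7150 listed genes, at 9.39-fold lower (7.06 to 12.5). AHNAK2, its less abundant paralog, had 521 normalized counts in shikonin and 3798 in control, with a log2 fold change of -2.87 ± 0.16, or 7.29-fold lower (5.83 to 9.11), per the authors' deposited table. The 2 intervals overlapped. AHNAK lies on chromosome 11 (62433542 to 62556235, minus strand) and AHNAK2 on chromosome 14 (104937244 to 104978357, minus strand). Both genes are built unlike the plakins: a single exon of 18170 nt makes up 96.7% of the AHNAK reference transcript, and one of 17483 nt makes up 95.8% of that of AHNAK2.

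Those exons are filled with repeats, which bears on how reads can be placed. In the AHNAK transcript 8.63% of all 50 nt windows occur more than once, and in AHNAK2 12.4%, against 0.263% in PLEC and none in the other 6 genes. With windows of 100 nt these shares were 1.08% and 1.25%, and 0 in PLEC. The stretch that recurs most often exactly, extended as far as all of its copies stay identical, is shown for each gene as it stands in the GENCODE 29 transcript, 5′ to 3′, because it is the sequence within which a short read cannot be assigned to one place. It has 4 copies in AHNAK, between positions 2886 and 9010 of the transcript, and 8 copies in AHNAK2, between positions 3098 and 13049. No letters are marked by capitals.
AHNAK, 74 nt repeat: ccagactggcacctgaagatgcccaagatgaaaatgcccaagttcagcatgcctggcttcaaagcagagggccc
AHNAK2, 52 nt repeat: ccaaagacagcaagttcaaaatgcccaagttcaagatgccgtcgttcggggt
In AHNAK2 neighbouring copies lie at least 495 nt apart, with a median of 990 nt. The longest exact repeat is 152 nt in AHNAK and 141 nt in AHNAK2, so a longer stretch occurs once in its transcript. The sources used here give neither the read length nor the treatment of reads with several places, and their part in the AHNAK values was not tested. Sharing with other genes was small: 2.33% of the AHNAK2 windows of 50 nt also occur in PLD4, a gene on the opposite strand that is not listed, and 0.592% of those of PLEC occur in EPPK1, a related plakin that is not listed. MACF1 and SPTBN1 shared 0.181% and 0.472% with antisense genes, FLNA a single window with FLNC, and DST, AHNAK, SPTAN1 and UTRN none. The largest exon overlap with a single gene on the opposite strand was 3.39% of the exon bases of SPTBN1, which also shared 1.09% with another such gene, and the sources used here do not say whether the counting used strand.

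FLNA and the spectrins fell 1.92-fold to 3.02-fold. FLNA encodes filamin A, which crosslinks actin into orthogonal networks and binds integrins, and was the most abundant of the 9 in both groups. Its implied mean was 35831 normalized counts in shikonin and 77183 in control, with a log2 fold change of -1.11 ± 0.17, or 2.15-fold lower (1.71 to 2.71), per the authors' deposited table. FLNA lies on chromosome X from 154348524 to 154374638 on the minus strand, and with a span of 26.1 kb it is the most compact of the 9 genes.

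SPTAN1 and SPTBN1 encode the non-erythroid alpha and beta spectrins, which pair to form the spectrin tetramer. SPTAN1 had 3779 normalized counts in shikonin and 7261 in control by implied mean. Its log2 fold change of -0.94 ± 0.14, or 1.92-fold lower (1.59 to 2.33), was in the authors' deposited table the smallest of the 9 and the one nearest to the fold limit of 1.5. SPTBN1 had 3095 normalized counts in shikonin and 9358 in control, with a log2 fold change of -1.60 ± 0.19, or 3.02-fold lower (2.35 to 3.89), per the authors' deposited table. The intervals of these partners did not overlap, and SPTBN1 minus SPTAN1 was -0.65 on the log2 scale. Per kilobase of reference transcript, SPTAN1 was at 504 and SPTBN1 at 303 normalized counts in shikonin, against 968 and 915 in control. Per kilobase of coding sequence, SPTAN1 was at 504 and SPTBN1 at 436 in shikonin, against 969 and 1318 in control, so which subunit stood higher in control depended on the length used. SPTAN1 lies on chromosome 9 (128552558 to 128633662) and SPTBN1 on chromosome 2 (54456285 to 54671445), both on the plus strand.

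UTRN encodes utrophin and was the least abundant of the 9. Its implied mean was 275 normalized counts in shikonin and 1307 in control, and its log2 fold change in the authors' deposited table was -2.25 ± 0.25, or 4.76-fold lower (3.38 to 6.70), with the widest error of the group. It spans 567 kb on chromosome 6 (144285701 to 144853034, plus strand), the longest span of the 9, in 74 exons.

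**Figure D2:**
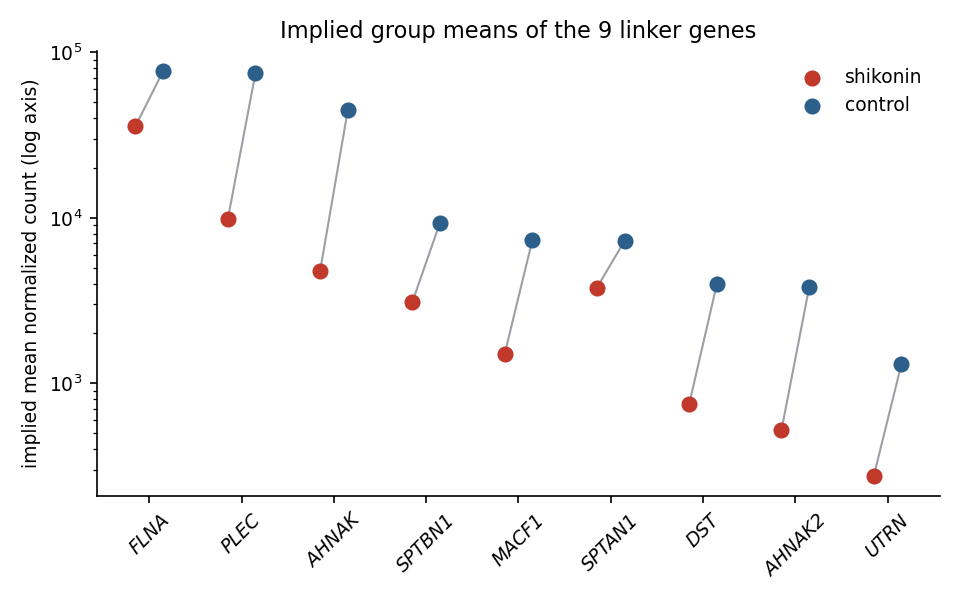
Implied mean normalized counts of the 9 linker genes on a log axis, with shikonin and control joined by a line for each gene and genes ordered by their control level. FLNA and PLEC stand at 35831 and 9771 in shikonin and almost level at 77183 and 74907 in control.

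Levels of different genes were compared per length. Per kilobase of reference transcript, the levels in shikonin were highest for FLNA (4207 normalized counts), then PLEC (641), SPTAN1 (504), SPTBN1 (303), AHNAK (253), MACF1 (61.6), DST (33.4), AHNAK2 (28.6) and UTRN (22.2). In control the order was FLNA (9063), PLEC (4912), AHNAK (2371), SPTAN1 (968), SPTBN1 (915), MACF1 (301), AHNAK2 (208), DST (177) and UTRN (106). AHNAK stood below both spectrins in shikonin and above both in control, also per kilobase of coding sequence (269 in shikonin and 2521 in control). Errors of these levels within a group cannot be had from the table, so close neighbours such as SPTAN1 and SPTBN1 in control, or DST and AHNAK2 in shikonin, should not be ranked. Of the summed normalized counts of the 9 genes, FLNA made up 59.5% in shikonin and 33.6% in control, PLEC 16.2% in shikonin and 32.6% in control, and AHNAK 7.88% in shikonin and 19.4% in control. The ratio of FLNA to PLEC was 3.67 in shikonin and 1.03 in control.

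Other members of these families were lower too where listed, at 1.86-fold to 2.35-fold, with 1 exception. Of 9 relatives, 5 were listed, 4 of them lower (24.7% of all genes tested) and 1 higher (25.5%). Desmoplakin (DSP), the plakin of desmosomes, was 2.35-fold lower (1.77 to 3.11), and envoplakin (EVPL), a plakin of the cornified envelope, 2.04-fold lower (1.56 to 2.67) per the authors' deposited table, both named after their values were seen. The PLEC interval lay wholly below both of theirs, and PPL and EPPK1 were not listed. FLNC, the filamin of muscle, had a log2 change of -0.95 ± 0.23 in the authors' deposited table, with an interval overlapping that of FLNA. SPTBN4, a beta spectrin, went the other way at 1.60 ± 0.61 in the authors' deposited table, from implied means of only 31.9 normalized counts in shikonin and 10.5 in control. DMD, the dystrophin gene, was 1.86-fold lower (1.25 to 2.78) per the authors' deposited table, and its interval did not overlap that of UTRN. SPTB and SPTBN5 were not listed, which means either not past the thresholds or not tested.

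Large coding length was shared by all 9, at 2366 to 7592 codons, and other genes of proteins this large were lower as well. Among 308 annotated coding genes with at least 2366 codons, 196 were listed, the 9 linkers included. Of the other 187, 177 were lower (94.7%) in the authors' deposited table, where their median stood at -1.78 (log2), while 48.4% of the 6694 listed genes with shorter coding sequences were lower, with a median of 0.62. The 112 unlisted large genes have no values here, so these shares and medians are over listed genes only. Only 10 of the 196 were higher, 9 of them with a mean below 100 normalized counts, and DMBT1, a mucin-like scavenger receptor gene named after its value was seen, was the exception at 1.18 ± 0.27 in the authors' deposited table.

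Within this large-protein group the linkers ranged widely. Counted from the lowest log2 fold change in the authors' deposited table, AHNAK stood 3rd of 196, PLEC 6th and AHNAK2 11th. The lowest was KMT2D (-3.44), a histone methyltransferase gene, and FAT1 (-3.28), an atypical cadherin gene, stood between it and AHNAK, both named after their values were seen. DST stood 31st, MACF1 44th and UTRN 48th, whereas SPTBN1 stood 121st, FLNA 160th and SPTAN1 170th. Set beside the 200 other listed coding genes nearest in coding length, the log2 difference from their median was -1.44 for AHNAK, -1.15 for PLEC and -1.08 for AHNAK2. Of these neighbours 1% were lower than AHNAK, 2.5% lower than PLEC and 5% lower than AHNAK2. The difference was -0.62 for DST, -0.51 for UTRN and -0.50 for MACF1, with 15%, 20.5% and 21.5% of neighbours lower. For SPTBN1 it was -0.05, and FLNA and SPTAN1 were 0.54 and 0.66 above the median of theirs, with 79.5% and 84.5% of neighbours lower. The neighbours of the 5 longest genes reached down to 2342 codons and were nearly the same genes for all 5, with a median of -1.79. Other linkers were counted among the neighbours, so these comparisons are not separate. The nearest 100 genes reached down to 2871 codons for the 5 longest genes and to 2649 for UTRN. With these the difference was -1.12 for AHNAK, -0.83 for PLEC, -0.76 for AHNAK2, -0.40 for UTRN, -0.30 for DST and -0.18 for MACF1. With those neighbours 23% were lower than DST and 34% lower than MACF1. How far length itself bears on the values of the 9 genes was not tested.

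**Figure D3:**
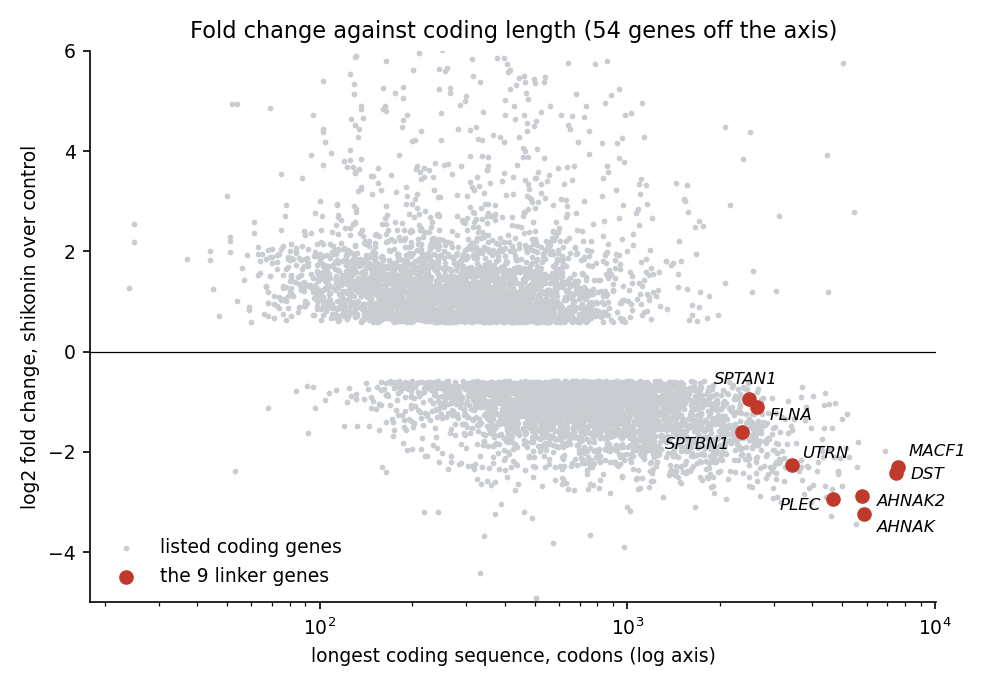
Log2 fold change, shikonin over control, in the authors' deposited table against the longest coding sequence in codons (log axis) for the listed coding genes (grey) and the 9 linker genes (red), with the vertical axis from -5 to 6 and 54 genes outside it. The empty band around 0 is the table's fold limit, and the red points run from SPTAN1 at -0.94 to AHNAK at -3.23.

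Among the 9, the value followed the length of the longest exon more closely than it followed the gene's size on the chromosome. Spearman's rho over the 9 genes between log2 fold change and the longest exon of the reference transcript was -0.97, against -0.72 for mature length, -0.67 for coding length and -0.02 for genomic span. FLNA and SPTAN1 have no exon over 598 and 297 nt, and AHNAK, AHNAK2 and PLEC have exons of 18170, 17483 and 7243 nt. These 9 points share their libraries and were chosen with results known, and the exon measure was chosen after their values were seen. In the 187 other listed genes of large proteins the same rho was -0.28, or -0.17 with mature length held constant by ranks. In the 6881 other listed coding genes it was -0.55, or 0.06 with mature length held constant. For mature length itself rho was -0.36 in the 187 genes and -0.70 in the 6881. For coding length it was -0.23 in the 187 and -0.60 in the 6881. In those 187 genes the median log2 fold change in the authors' deposited table was -1.36 for the 36 with no exon of 1000 nt and -1.93 for the 38 with an exon of at least 5000 nt, while their median mature lengths were 8904 and 12455 nt.

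Since the 9 genes moved together, the 250 bases before their transcript starts in RefSeq were searched for common promoter motifs. These starts can lie inside the GENCODE span of the gene, as that of AHNAK does. RefSeq (GRCh38.p14) gave 15 such windows for 8 of the 9 genes, all but PLEC: 3 each for DST and MACF1, 2 each for AHNAK2, SPTBN1 and UTRN, and 1 each for AHNAK, FLNA and SPTAN1. The windows of AHNAK, which fell most, and of FLNA and SPTAN1, which fell least, are printed on the strand of the gene, 5′ to 3′, so that both ends of the range can be compared. A short stretch just after the start was found in the GENCODE reference transcript of FLNA but not in those of AHNAK and SPTAN1. The windows of AHNAK and SPTAN1 thus need not belong to the reference transcripts described above. Capitals mark GC boxes (GGGCGG on either strand) and, in FLNA, the CArG box, the motif bound by serum response factor.
AHNAK, chr11:62545827-62546076, minus strand: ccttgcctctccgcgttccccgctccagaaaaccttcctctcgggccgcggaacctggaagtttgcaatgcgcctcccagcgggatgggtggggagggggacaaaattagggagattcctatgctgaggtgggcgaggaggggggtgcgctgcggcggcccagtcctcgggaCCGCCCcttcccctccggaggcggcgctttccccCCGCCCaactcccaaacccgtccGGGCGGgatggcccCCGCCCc
FLNA, chrX:154374635-154374884, minus strand: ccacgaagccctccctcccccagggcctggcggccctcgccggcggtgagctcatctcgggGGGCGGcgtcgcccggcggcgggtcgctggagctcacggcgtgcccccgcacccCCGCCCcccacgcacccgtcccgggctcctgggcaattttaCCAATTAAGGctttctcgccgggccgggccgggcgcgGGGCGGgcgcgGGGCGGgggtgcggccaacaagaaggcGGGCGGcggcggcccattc
SPTAN1, chr9:128552337-128552586, plus strand: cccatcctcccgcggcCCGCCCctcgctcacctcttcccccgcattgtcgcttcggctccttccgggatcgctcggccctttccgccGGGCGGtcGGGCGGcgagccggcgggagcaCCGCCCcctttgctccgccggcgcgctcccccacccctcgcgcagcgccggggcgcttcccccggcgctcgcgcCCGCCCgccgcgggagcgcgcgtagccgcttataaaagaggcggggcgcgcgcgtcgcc
All 3 are rich in G and C, at 70.0% in AHNAK, 78.4% in FLNA and 79.2% in SPTAN1 against a median of 58.0% over 35116 RefSeq windows. They hold 4 GC boxes in AHNAK and 5 each in FLNA and SPTAN1, so in these windows the motif does not separate the ends of the range. At least 1 window of each of the 8 genes holds a GC box, as do 66.7% of their 15 windows and 42.6% of all windows. The CArG box was found in 1 of the 15 windows, that of FLNA, where its first letters also spell CCAAT, and in 1.16% of all windows. On either strand, CAGGTG, an E-box that Snail-family factors bind, was found in 3 of the 15 windows and in 17.5% of all. The TEAD motif GGAATG was found in 2 of the 15 and 11.9% of all, CCAAT in 5 of the 15 and 32.0% of all, and TATAAA in 3 of the 15 and 10.7% of all. The heat shock half-sites GAANNTTC were found in 1 of the 15 and 5.78% of all, the AP-1 motif TGANTCA in 0 of the 15 and 6.57% of all, and the palindromic NRF1 motif in 0 of the 15 and 1.03% of all. A match is a run of letters and not a bound site.

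Genes of the filaments and complexes that the linkers hold were read next, in 12 lists of partners with 110 genes, of which 64 were listed, 31 higher and 33 lower, where 25.5% and 24.7% of all genes tested were listed higher and lower. With equal implied totals 13 were higher. The count of 33 lower could not change, since that shift lowers every value and unlisted genes have none. Among the higher genes named here, CAV1, ANXA2, VIM, ITGB4, CNN3, ILK, FBLIM1, DMTN, DTNB, SGCE, MAPRE3 and CAMSAP3 then came inside the fold limit. Partners of AHNAK went against it. S100A10 had 13591 normalized counts in shikonin and 6081 in control by implied mean, or 2.24-fold higher (1.85 to 2.70) per the authors' deposited table. ANXA2, the annexin it binds, was 1.64-fold higher (1.40 to 1.92) per the authors' deposited table. Their coding sequences are short, at 97 and 357 codons. The partners named here as higher have at most 1822 codons (ITGB4). Of those named as lower, LAMA3, ANK2, ANK3, TLN2, APC and SYNE2 have 2542 to 6907 codons. By length these belong with the genes of large proteins above, most of which were lower where listed. The others named as lower have 412 to 1565 codons. The part of length in these values was not tested.

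Intermediate filament genes, whose products plectin binds, were mostly higher, 7 of the 12 against 2 lower (SYNM and LMNB2), and 4 higher with equal implied totals. The median of the listed genes was 0.94 in the authors' deposited table. KRT7 and KRT18, keratins of simple epithelia, were 3.43-fold (2.68 to 4.40) and 3.18-fold (2.61 to 3.87) higher, and VIM, the vimentin gene, 1.74-fold higher (1.47 to 2.07) per the authors' deposited table. SYNM, which encodes the large intermediate filament protein synemin, was 3.26-fold lower (2.58 to 4.13) per the authors' deposited table. PLEC and 7 of these 12 filament genes therefore stood on opposite sides of the table, or 4 of the 12 with equal implied totals. At the hemidesmosome, where plectin binds integrin α6β4, 2 of 7 genes were higher and 3 lower. ITGA6 was 2.39-fold lower (1.97 to 2.90) and ITGB4 1.59-fold higher (1.25 to 2.02) per the authors' deposited table. LAMA3, a chain of laminin-332, was 1.99-fold lower (1.45 to 2.71) and the tetraspanin gene CD151 2.00-fold higher (1.65 to 2.42) per the authors' deposited table.

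Genes of actin and its small binders were higher wherever they were listed. Of 20 genes, 11 were listed higher and 0 lower, with 6 higher when implied totals were equal, and the median of the listed genes was 1.10 in the authors' deposited table. TMSB10 and TMSB4X, which encode the actin-sequestering thymosins, were 4.04-fold (3.26 to 5.01) and 3.56-fold (2.87 to 4.42) higher per the authors' deposited table, with coding sequences of 44 codons each. The 10 smaller crosslinkers, among them the actinins, had 8 members not listed, with CNN3 (calponin 3) at 0.74 ± 0.11 and PARVA (alpha-parvin) at -0.59 ± 0.14 in the authors' deposited table. Adaptors of integrin adhesions were 2 higher and 5 lower of 12. TLN2, one of the talins that link integrins to actin, was 2.86-fold lower (2.06 to 3.97), and TNS3, a tensin, 2.53-fold lower (2.03 to 3.16) per the authors' deposited table. ILK, integrin-linked kinase, was 1.79-fold higher (1.51 to 2.12) and FBLIM1, which binds filamin, 1.68-fold higher (1.31 to 2.16) per the authors' deposited table.

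In the spectrin mesh more genes were listed lower than higher. Of 13, 6 were lower and 1 higher, with a median of -0.95 over the listed genes in the authors' deposited table. ANK2, an ankyrin that ties spectrin to membrane proteins, was 2.87-fold lower (1.98 to 4.17) and ANK3 2.08-fold lower (1.15 to 3.76) per the authors' deposited table. DMTN, the gene of the actin bundler dematin, was 1.73-fold higher (1.14 to 2.61) per the authors' deposited table. The complex that utrophin joins was split, 2 higher and 3 lower of 8, and 0 higher with equal implied totals. DAG1, the dystroglycan gene, was 2.63-fold lower (2.07 to 3.34) and SNTB2, a syntrophin gene, 3.77-fold lower (3.03 to 4.70) per the authors' deposited table. DTNB, the beta-dystrobrevin gene, and SGCE, epsilon-sarcoglycan, were 1.76-fold (1.27 to 2.43) and 1.90-fold (1.51 to 2.38) higher per the authors' deposited table.

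Binders of microtubule ends, which work beside MACF1 and DST, were 8 lower and 2 higher of 13, and 8 lower and 0 higher with equal implied totals. APC was 4.14-fold lower (3.02 to 5.68) and CLASP1, which stabilises microtubules at the cortex, 3.20-fold lower (2.38 to 4.32) per the authors' deposited table. MAPRE3 and CAMSAP3 were 1.58-fold (1.17 to 2.12) and 1.88-fold (1.20 to 2.94) higher per the authors' deposited table. At the nuclear envelope SYNE2, which encodes the giant spectrin-repeat protein nesprin-2, was 3.93-fold lower (2.84 to 5.45), and SYNE3 1.53-fold lower (1.14 to 2.05) per the authors' deposited table. The other 3 genes of that list were not listed. RDX and NF2, of the ezrin family, were 1.61-fold (1.31 to 1.99) and 2.33-fold (1.61 to 3.39) lower per the authors' deposited table, while EZR and MSN were not listed. Calpains are proteases that cut spectrin, filamin and talin, and the protease genes of that list, CAPN1 and CAPN2, were not listed. CAPNS1, their small subunit, was 2.04-fold higher (1.74 to 2.39), and CAST, their inhibitor, 1.54-fold lower (1.28 to 1.85) per the authors' deposited table.

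**Figure D4:**
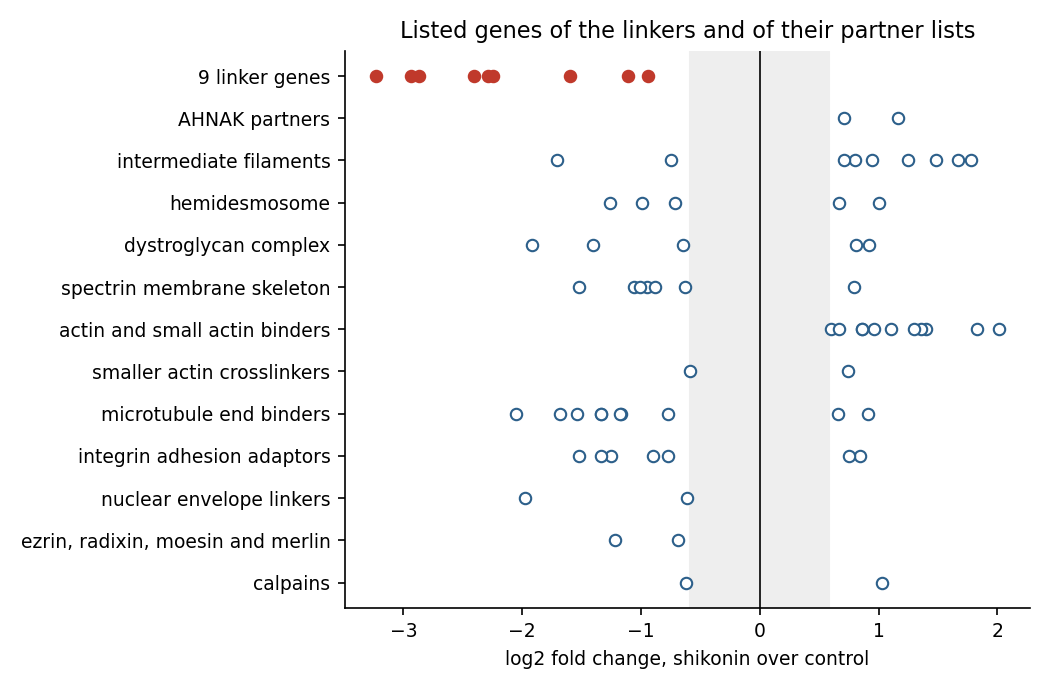
Log2 fold change, shikonin over control, in the authors' deposited table for the 9 linker genes (filled, top row) and for the listed genes of 12 partner lists (open circles), with the grey band marking the fold limit within which no gene is listed. The linkers lie from -3.23 to -0.94, and the 11 listed genes of actin and its small binders all lie to the right of 0.

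Likeness to the linkers could be measured over a single comparison only. The 5 listed genes nearest to their median log2 fold change, among those within 2-fold of their median level, were MAVS, MKI67, UHMK1, HEG1 and ARHGEF12, at -2.30 to -2.23 in the authors' deposited table. Their coding sequences have 419 to 3256 codons, and that of MKI67, the longest, lies within the range of the linkers. A value like that of the linkers was thus also reached by some genes with shorter coding sequences. The lengths of their messages were not compared.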

How the data were processed

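RNA of MDA-MB-231 cells (3 shikonin and 3 control libraries) was made into libraries with the NEBNext Ultra kit, per the labels' protocols. HISAT2 2.0.5, fastp, DESeq2 and hg38 stand in the submitters' processing notes. With 0 columns of single samples in the deposited table, library depth is unknown. The normalized count in it is a mean signal over the libraries, made by the authors, per the file headers. The authors also computed the log2 fold change, its standard error, the Wald score and raw and adjusted p-values, per the file headers.

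Group means were solved from mean and fold, assuming 3 and 3 libraries of equal weight. Intervals at 95% are normal. How many genes the authors tested follows from the ratio of adjusted to raw p over the first 500 ranks. Lengths and exons came from the GENCODE 29 transcript with the longest coding sequence, matched by Ensembl identifier for 7142 genes. Tools were Python 3.11.15, pandas 2.3.3 and scipy 1.17.1, and scripts were tested on simulated data.

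The genes and lists were chosen with earlier results of these data known. Named genes were all 9 linkers, every listed gene of a list with at most 4, otherwise the 2 highest and 2 lowest, and the 5 nearest in value. Some relatives and partners are not reported here. The planned fits per sample could not be made. Alternatives were equal implied totals, an adjusted p below 0.001, a fold above 2, a mean of at least 100, other lengths and 100 neighbours.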

Additional observations from a re-analysis of the deposited data

How the results depend on the processing

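No paired analysis was possible because the table has no columns of single samples, and for the same reason leaving out each replicate could not be run. The 9 linkers stayed listed lower with an adjusted p below 0.001 and a mean of at least 100, and 8 did with a fold above 2. With equal implied totals all 9 are lower by construction, since that shift lowers every value. Their median log2 fold change, -2.29, moved to -2.68 with equal implied totals, by construction of that shift. Of the partner genes, 31 higher became 13 with equal implied totals and 12 with a fold above 2, and 33 lower became 19 with a fold above 2. With equal implied totals 18 partner genes fell inside the fold limit. None of the 73 log2 fold changes checked could turn its direction, because the shift of 0.394 is smaller than the log2 of the 1.5-fold limit. Below the median of their length neighbours stood 7 of the 9 by coding length or longest transcript and 6 by mature length, SPTBN1 being the gene that moved. Members with a window in another gene numbered 5 at 50 nt and 1 at 100 nt, an alternative that was, like the adjusted p of the partner genes, chosen after seeing the data. Genes not past the authors' thresholds have no values, and error within a group cannot be given.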
